A study of Mus musculus with 8 samples.

Results

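Levels of 10 genes of D-serine and serine-glycine metabolism were followed on arrays of mouse spinal cord: Dao, Ddo, Srr, Slc7a10, Slc1a4, Phgdh, Psat1, Psph, Shmt1 and Slc6a9. They were found by name or by RefSeq mRNA accession and are 10 of the 18198 genes whose mRNA passed the filter on dim probes. They hold 27 of the 47074 mRNA probes on the array, and all 27 passed that filter. The genes were chosen by function with their contusion-control differences already known, the large fall of Dao above all, so their values are a description and carry no test. The samples were thoracic cord of 8 female mice aged 8 weeks, 1 array per mouse, with 4 mice in each group. The contusion group had a blunt bruising injury of the cord, with tissue from around the injury at T9 to T10. The titles and the series design put all 4 contusion samples at 3 days, whereas the descriptions of contusion replicates 2, 3 and 4 give 4, 5 and 6 days. The controls were sham-operated according to the series design and normal cord according to their descriptions. Strain and genotype were not given in the sources used here.

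D-serine binds the co-agonist site of the NMDA receptor, a glutamate receptor that opens only when glutamate and a co-agonist are both bound, and glycine can fill the same site. Cells make L-serine from a glycolytic intermediate through the enzymes of Phgdh, Psat1 and Psph, serine racemase (Srr) turns L-serine into D-serine, and D-amino-acid oxidase (Dao) breaks D-serine down in peroxisomes. Serine hydroxymethyltransferase interconverts serine and glycine and hands a one-carbon unit to folate. In the spinal cord glycine is also a fast inhibitory transmitter, and the carriers of Slc6a9 and Slc6a5 clear it from the synapse.

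All probes were 60 bases long. The sequences given are 5 chosen probes of Dao, Phgdh, Psph and Shmt1 that read as coding sequence. The Phgdh, Psph and downstream Shmt1 probes shown do not stand for their genes, which are represented by brighter probes. The first Dao probe and the Phgdh probe cross an intron, since their coordinates on the mouse build mm9 span 908 and 709 bases, and the 2 Shmt1 probes gave different results. Letters run 5′ to 3′ as in the array files, with nothing marked.
Dao, chr5:114473931-114474838, plus strand: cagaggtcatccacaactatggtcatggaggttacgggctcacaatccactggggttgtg
Phgdh, chr3:98118326-98119034, minus strand: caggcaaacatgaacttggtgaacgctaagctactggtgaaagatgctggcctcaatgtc
Psph, with no position in the array files: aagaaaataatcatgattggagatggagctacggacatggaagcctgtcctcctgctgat
Shmt1 upstream, chr11:60612096-60612155, minus strand: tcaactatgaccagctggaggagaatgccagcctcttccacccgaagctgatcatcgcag
Shmt1 downstream, chr11:60603099-60603158, minus strand: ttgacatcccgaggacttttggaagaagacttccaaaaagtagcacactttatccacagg

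A level is a probe's log2 intensity minus the 75th percentile of its array, so 0 is the brightness that 75% of probes fall below, and levels of different probes are not comparable. Differences are contusion minus control on this log2 scale, with limma's standard error. Between 72.9% and 75.4% of probes were well above background on each array, and no spot was saturated. The number of arrays limits the precision, and the median standard error of an mRNA difference was 0.0944. All 14 neuronal and all 12 oligodendrocyte markers listed were well above background on all 8 arrays. The same held for all 9 skeletal muscle and all 12 macrophage and microglia markers, so detection does not tell tissues apart. Neuronal markers were called lower in 14 of 14, with array means of 5.45 to 5.64 in controls and 4.62 to 4.92 after contusion. Of 11 astrocyte markers outside the 10 genes, 6 were lower and 4 higher, with array means of 5.96 to 6.17 and 5.87 to 5.96. Macrophage and microglia markers were higher in 12 of 12 (1.09 to 2.92 in controls, 4.79 to 5.12 after contusion), and markers of dividing cells in 11 of 12 (−0.67 to 0.78, then 2.61 to 3.24). Oligodendrocyte markers were lower in 4 and higher in 1 of 12, endothelial markers higher in 8 of 10 (median 0.71) and red cell markers higher in 5 of 9 (median 0.96). Skeletal muscle markers were uneven, at −0.70 to 1.25 in controls and −0.02 to 4.17 after contusion. Schwann cell and sensory root markers were uneven mainly among controls, at 1.76 to 3.41, then 2.30 to 2.89 after contusion. So were meningeal fibroblast markers, at 3.39 to 4.73 in controls and 4.27 to 4.58 after contusion. In whole tissue, fewer cells of a type and less RNA per cell cannot be told apart, and the part of these shifts in any result here was not tested.

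Of the 10 genes, 3 were called lower (Dao, Slc7a10 and Slc6a9) and 1 higher (Psph) at an adjusted p under 0.05. Over all mRNAs, 25.4% were called lower and 25.8% higher, 51.2% together, and since the genes were chosen with this contrast known nothing is read from the comparison. The groups of these 4 genes did not overlap, 3 lower and 1 higher, against 51.8% of all mRNAs (25.2% lower and 26.6% higher). Dao was the 1 gene of the 10 called with at least a 2-fold difference, against 10.1% of all mRNAs. The median difference of the 10 genes was −0.03, and that of all mRNAs was −0.0016. The genes called lower remove D-serine (Dao), carry it (Slc7a10) or clear glycine (Slc6a9), and the gene called higher encodes the last enzyme of L-serine synthesis. Srr, Ddo, Slc1a4, Phgdh, Psat1 and Shmt1, with related functions, were not called, so no shared direction is read from these functions.

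**Figure D1:**
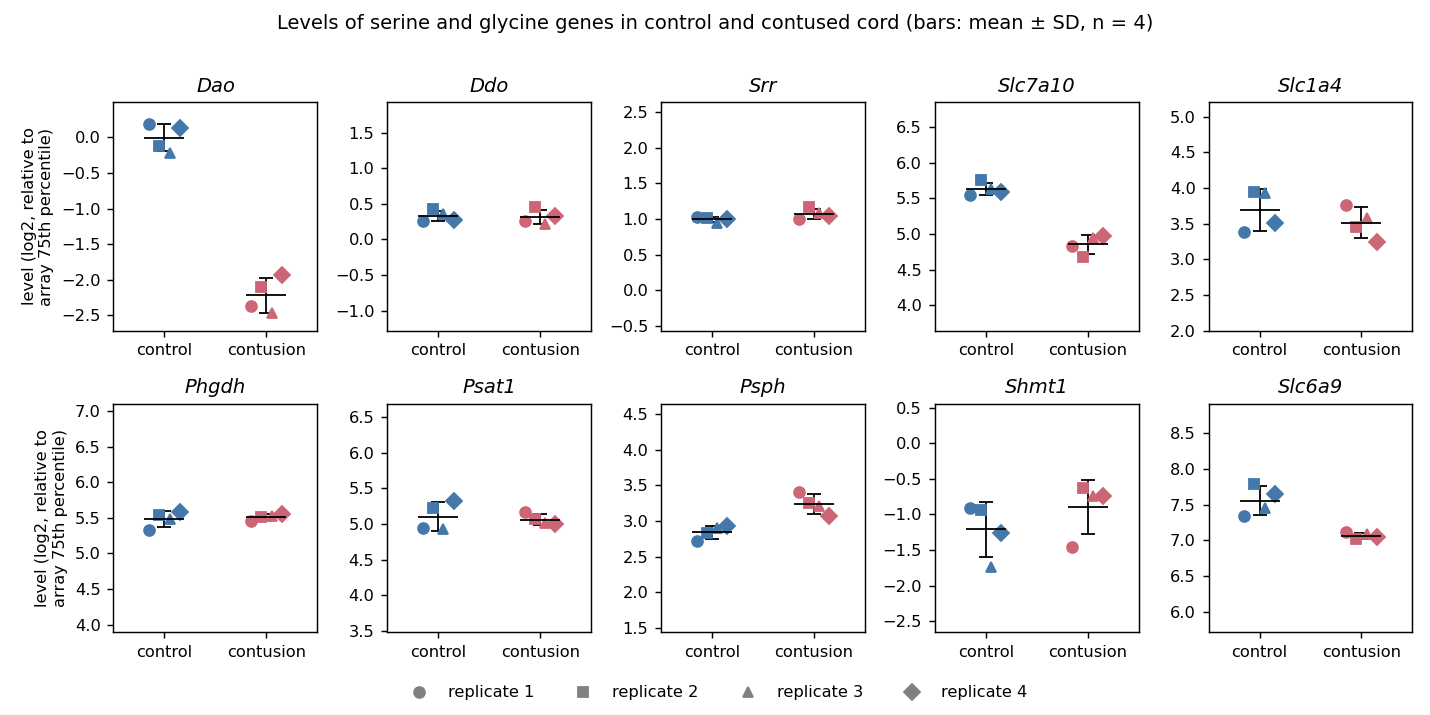
Levels of the 10 genes in each sample, by the brightest probe of each gene, on a log2 axis relative to the array's 75th percentile; each panel spans the same number of log2 units, symbols give the replicate, and bars give mean ± SD (n = 4 per group). Dao, Slc7a10 and Slc6a9 are lower and Psph higher in all contusion samples than in any control, while the groups of the other 6 genes overlap.

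Dao encodes the peroxisomal oxidase that degrades D-serine and other neutral D-amino acids. By the intron-crossing probe shown above its level was 0.18, −0.12, −0.21 and 0.13 in control replicates 1 to 4 and −2.36, −2.10, −2.47 and −1.93 in contusion replicates 1 to 4. The highest contusion sample lay 1.72 below the lowest control, and both groups were well above background on all arrays. Dao differed by −2.21 ± 0.14 (n = 4 per group), which leaves 21.6% of the control level and ranks 3 among the falls of all 18198 mRNAs. The second Dao probe, with no mapped position, gave −2.15 ± 0.17, from −0.98 to −0.72 in controls and −3.48 to −2.62 after contusion. By the first probe the difference was −2.30 within slide 1 and −2.35 within slide 2, each resting on 1 array on one side. The groups did not overlap, so the sign within slides was fixed in advance. With normexp background correction, which adds an offset of 50, and quantile scaling the first probe gave −1.47.

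Ddo encodes the related oxidase of D-aspartate, an acidic D-amino acid. Its level was 0.26, 0.43, 0.35 and 0.27 in controls and 0.26, 0.45, 0.22 and 0.32 after contusion, so the groups lay on top of each other (−0.01 ± 0.07). The second Ddo probe was 0.29 ± 0.08 higher, from −0.40 to −0.21 in controls to −0.10 to 0.14 after contusion, without overlap, so the 2 probes differ. A non-coding Ddo transcript (NR_133568) had levels of −4.02 to −3.33 in controls and −4.99 to −4.30 after contusion, a difference of −0.71 ± 0.20 without overlap. Contusion replicate 4 lay near the lowest level well above background on its array (−5.14), so the size of this fall is uncertain. Dao and Ddo thus had unlike values on the same arrays, and the difference between their changes was not tested.

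Srr encodes serine racemase, which makes D-serine. The brightest of its 4 probes read 1.03, 1.01, 0.95 and 1.00 in controls and 1.00, 1.16, 1.08 and 1.04 after contusion, overlapping groups that differed by 0.07 ± 0.06. A probe 1301 bases away on mm9, also toward the 3′ end, gave 0.10 ± 0.11. A probe 4398 bases upstream of the brightest was lower without overlap (−0.24 ± 0.07), from −0.38 to −0.15 in controls to −0.61 to −0.48 after contusion. The fourth, unmapped, was also lower without overlap (−0.29 ± 0.08). Taking the mean of the 4 probes turned the sign of Srr to −0.09 ± 0.05, so its direction depends on the probe.

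The array also carries probes for circRNAs, closed loops made by back-splicing of exons. By position, 11 of them fell inside 6 of the 10 genes of GRCm38, all 11 on the strand of the gene, but the build behind the circRNA positions was not given. All 5 in Srr had a lower mean after contusion, by −0.17 to −0.03, with overlapping groups. Their differences ran from −0.28 to 0.02 within slide 1 and from −0.02 to 0.07 within slide 2. The shared direction thus did not hold within slides. Of those 5, 3 probes share runs of 53 or 54 bases and are close to 1 measurement. Of the 11 circRNAs, 2 were called, in Slc6a9 and Shmt1, against 42.0% of all circRNAs (25.7% lower). The groups of those 2 did not overlap, as in 43.7% of all circRNAs, and the other 9 overlapped.

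Slc7a10 encodes Asc-1, which exchanges small neutral amino acids including D-serine, and is used as an astrocyte marker. Its level was 5.55, 5.76, 5.63 and 5.58 in controls and 4.84, 4.68, 4.95 and 4.97 after contusion. All 4 contusion samples were below all controls, by 0.58 at the closest. Slc7a10 differed by −0.77 ± 0.09, to 58.6% of control, and its second probe by −0.72 ± 0.10. Within slides 1 and 2 the first probe gave −0.82 and −0.69, with the sign fixed in advance since the groups did not overlap. Slc1a4 encodes ASCT1, another exchanger of neutral amino acids that carries serine. It read 3.38, 3.95, 3.93 and 3.50 in controls and 3.76, 3.46, 3.58 and 3.24 after contusion, a wide spread within each group and a difference of −0.18 ± 0.16. Its other 2 probes gave −0.02 ± 0.11 and −0.03 ± 0.07, and with slide as a block the first probe gave 0.01.

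The first 2 enzymes of L-serine synthesis showed overlapping groups. Phgdh, of the dehydrogenase that opens the pathway, read 5.33, 5.54, 5.48 and 5.58 in controls and 5.45, 5.51, 5.53 and 5.55 after contusion (0.03 ± 0.07). Its intron-crossing probe shown above gave 0.07 ± 0.06, and all 4 probes lay between −0.16 and 0.07. Of these, 1 pair shares 57 bases and reads the same stretch. Another probe shares 17 bases with 1 of that pair, so 3 of the 4 probes are not independent. Psat1, of the aminotransferase that follows, read 4.94, 5.22, 4.93 and 5.32 in controls and 5.16, 5.07, 5.02 and 5.00 after contusion (−0.04 ± 0.10), and its second probe gave −0.06 ± 0.08.

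Psph encodes the phosphatase that releases L-serine. Its level was 2.72, 2.83, 2.90 and 2.93 in controls and 3.41, 3.25, 3.21 and 3.08 after contusion. All 4 contusion samples were above the controls, by 0.15 at the closest, and the gene was higher by 0.40 ± 0.09, to 132% of control. Its other 2 probes gave 0.29 ± 0.08 and, for the coding probe shown above, 0.33 ± 0.07, both without overlap. The first of these shares 40 bases with the brightest probe, whereas the coding probe shares no long run with either. Without contusion replicates 1 and 2, where muscle markers were high, the difference was 0.30 and Psph was no longer called.

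Shmt1 encodes the cytosolic serine hydroxymethyltransferase, and its 3 probes gave different pictures. The upstream probe, the brightest, read −0.91, −0.94, −1.74 and −1.26 in controls and −1.46, −0.63, −0.74 and −0.74 after contusion, with overlap and a difference of 0.32 ± 0.24. The downstream probe, 8997 bases away on mm9, read −4.40, −4.25, −5.19 and −4.16 in controls and −2.79, −2.91, −3.02 and −2.96 after contusion. It was higher in all contusion samples, by 1.58 ± 0.21. Control replicate 3 lay near the lowest level well above background on its array (−5.48), so the size of this rise is uncertain. The remaining, unmapped probe was well above background on 2 of 4 control arrays and on all contusion arrays, at −5.98 to −4.30 and −4.01 to −3.54. A circRNA at chr11:60789034-60790262, whose 3′ edge lies 137 bases inside the 3′ end of the gene in GRCm38, rose from −4.66 to −4.21 in controls to −3.09 to −2.90 after contusion (1.41 ± 0.10). Its probe shares no run of 15 bases with the mRNA probes. The mean of the 3 mRNA probes was called higher, by 1.08 ± 0.11, but it includes the probe not measured above background on all control arrays, so its size is uncertain. With slide as a block the upstream probe gave 0.03 ± 0.20.

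Slc6a9 encodes GlyT1, the glycine carrier of glia that sets glycine around NMDA receptors. Its level was 7.34, 7.80, 7.45 and 7.65 in controls and 7.11, 7.01, 7.08 and 7.05 after contusion. The contusion samples lay close together (SD 0.04, against 0.20 in controls) and below all controls, by 0.23 at the closest. Slc6a9 differed by −0.49 ± 0.10, to 71.0% of control. It was −0.52 within slide 1 and −0.29 within slide 2, where the sign was again fixed in advance. Its second probe, which shares 47 bases with the first, gave −0.45 ± 0.09. A circRNA at chr4:117855875-117857473 inside the gene was also lower, from 0.59 to 0.93 in controls to 0.08 to 0.36 after contusion (−0.53 ± 0.10).

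**Figure D2:**
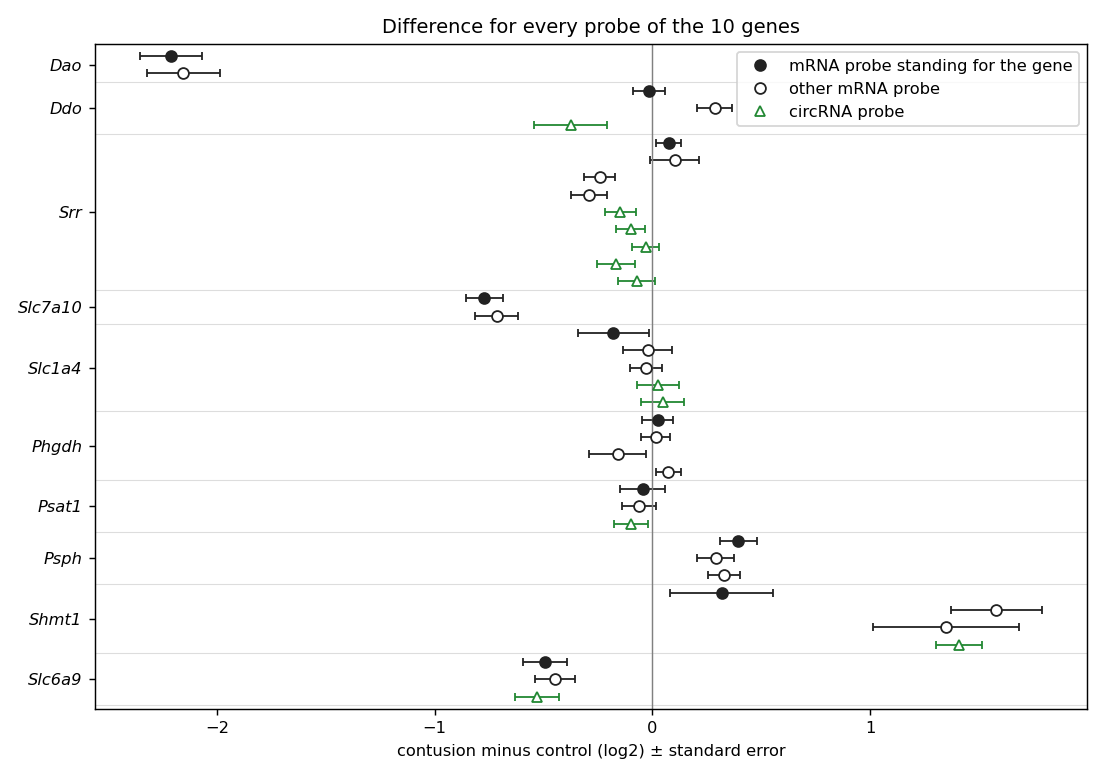
Contusion minus control (log2, horizontal axis, ± standard error) for all 27 mRNA probes of the 10 genes and the 11 circRNA probes placed inside them; filled circles are the probes that stand for a gene, open circles its other probes and triangles circRNAs. The 2 Dao probes lie at −2.21 and −2.15, the Shmt1 probes spread from 0.32 to 1.58, and the Srr probes lie on both sides of 0.

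The surroundings of these genes were described with 95 other genes in 7 lists. Of the 95, 23 were called higher and 26 lower with limma, 49 in all, against 51.2% of all mRNAs. All 49 had the same sign within both slides. For nearly all of them the groups did not overlap, which fixes the sign within each slide in advance. The count is therefore no test of an effect of slide. The lists were written with earlier results of these data in view, and 3 of their genes (Aldh1l1, Slc6a5 and Tyms) are also cell type markers used above.

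NMDA and glycine receptor genes, listed together with the receptor scaffold gene Gphn (−0.48), were called in 12 of 12, 11 lower and 1 higher, with a median of −0.90. Grin1, the obligatory NMDA receptor subunit that holds the co-agonist site, read 6.30, 6.45, 6.28 and 6.37 in controls and 5.43, 5.51, 5.54 and 5.26 after contusion. It fell by 0.91 ± 0.08 (adjusted p = 0.000170, limma), with no overlap. Grin3b, a glycine-binding subunit found in motor neurons, read 2.40, 2.66, 2.27 and 2.50 in controls and 0.76, 0.96, 0.82 and 0.84 after contusion. It fell the most, by 1.61 ± 0.09 (adjusted p = 8.27e-05, limma), to 32.7% of control, and Grin2c fell by 1.13 ± 0.16 (adjusted p = 0.000957, limma). Glra1, the adult glycine receptor subunit, read 6.24 to 6.42 in controls and 5.47 to 5.60 after contusion, a fall of 0.79 ± 0.07 (adjusted p = 0.000151, limma). Glra3 was the exception, higher by 0.21 ± 0.07 (adjusted p = 0.0377, limma), but the mean of its probes was lower by −0.28 ± 0.06. Its call also ended without control replicate 1 or 2 and without any 1 of the contusion replicates, at adjusted p of 0.0605 to 0.0966 (limma). The neuronal markers, at a median of −0.74, moved with this list, and their part in it was not tested.

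Of 6 genes whose proteins bind or position serine racemase, 4 were called, all lower (median −0.59). Cacng2, the gene of stargazin, fell by 0.97 ± 0.08 (adjusted p = 0.000146, limma) and the scaffold gene Grip1 by 0.82 ± 0.07 (adjusted p = 0.000183, limma). Among 13 other serine and glycine transporters 2 were called higher and 4 lower (median 0.14). The neuronal glycine carrier gene Slc6a5 fell by 0.84 ± 0.09 (adjusted p = 0.000366, limma) and Slc32a1, of the vesicular carrier of GABA and glycine, by 0.92 ± 0.14 (adjusted p = 0.00116, limma). The neuronal markers, Slc6a5 among them, also fell, at a median of −0.74. Their part in the falls of the partner and transporter genes was not tested. Slc38a5, a carrier of glutamine, serine and glycine, rose 2.31-fold (adjusted p = 0.00253, limma), and Sfxn1, which brings serine into mitochondria, rose 1.44-fold (adjusted p = 0.00224, limma). Slc7a11, of the cystine-glutamate exchanger, differed by 0.42 ± 0.17 (adjusted p = 0.0881, limma) and was not called. It was called when its probes were averaged (adjusted p = 0.0459, limma) and without control replicate 3 (adjusted p = 0.00701, limma).

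Folate cycle and glycine cleavage genes were called higher in 8 of 16 and lower in 1, with a median of 0.25. Shmt2, the mitochondrial counterpart of Shmt1, read 1.24, 1.13, 1.20 and 1.00 in controls and 1.71, 1.81, 1.76 and 1.93 after contusion, a rise of 0.66 ± 0.08 (adjusted p = 0.000449, limma). Gldc, of the glycine cleavage system, rose by 0.49 ± 0.06 (adjusted p = 0.000554, limma), from 0.62 to 0.80 in controls to 1.16 to 1.22 after contusion. The largest rise was that of Tyms, which makes thymidylate for DNA (5.51-fold, adjusted p = 0.000112, limma). The dividing-cell markers, at a median of 3.14, moved with it, and their part was not tested. Aldh1l1, a folate enzyme of astrocytes, rose by 0.88 ± 0.08 (adjusted p = 0.000209, limma). Mthfd2l fell by 0.53 ± 0.09 (adjusted p = 0.00204, limma), and its relative Mthfd2 differed by 0.25 ± 0.09 (adjusted p = 0.0544, limma). Mthfd2 was called with normexp and quantile scaling (adjusted p = 0.00988, limma), with the filter on all 8 arrays (adjusted p = 0.0461, limma) and without control replicate 4 (adjusted p = 0.0168, limma).

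Among 17 genes that use serine or glycine 5 were called higher and 2 lower (median 0.11). Serinc2 rose 1.95-fold (adjusted p = 0.00367, limma) and Sptlc2, of the enzyme that joins serine to a fatty acid in sphingolipid synthesis, 1.38-fold (adjusted p = 0.00524, limma). Serinc1 fell by 0.44 ± 0.11 (adjusted p = 0.0153, limma), and Cbs, which condenses serine with homocysteine, fell by 0.30 ± 0.09 (adjusted p = 0.0361, limma). The call for Cbs ended with slide as a block (adjusted p = 0.0726, limma), and without control replicate 1, 2 or 4 or contusion replicate 1 or 3 (adjusted p of 0.0606 to 0.0881, limma).

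ATF4 is a stress-induced factor whose known targets include genes of serine synthesis. In its list of 13 genes 6 were called higher and 1 lower (median 0.22). Nupr1 rose 5.41-fold (adjusted p = 0.000214, limma) and Cebpb 3.15-fold (adjusted p = 8.27e-05, limma), whereas Asns, of asparagine synthetase, fell by 0.46 ± 0.13 (adjusted p = 0.0219, limma), a call that ended with slide as a block (adjusted p = 0.0725, limma) and without control replicate 2 or 4 or contusion replicate 4 (adjusted p of 0.0556 to 0.0604, limma). Atf4 itself differed by 0.22 ± 0.09 (adjusted p = 0.0796, limma), and was called with slide as a block (adjusted p = 0.0343, limma) and with the authors' deposited log2 values (adjusted p = 0.0182, limma), and without control replicate 2 (adjusted p = 0.0410, limma). Peroxisome genes, which share the compartment of Dao and Ddo, were called in 4 of 18, 1 higher and 3 lower, at a median of 0.00. Abcd2, a peroxisomal fatty acid carrier, fell by 0.89 ± 0.13 (adjusted p = 0.000956, limma), and the import gene Pex14 fell by 0.44 ± 0.13 (adjusted p = 0.0299, limma), which was lost with slide as a block (adjusted p = 0.103, limma). The Pex14 call also ended without control replicate 2, 3 or 4 or contusion replicate 3 or 4 (adjusted p of 0.0583 to 0.0749, limma).

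**Figure D3:**
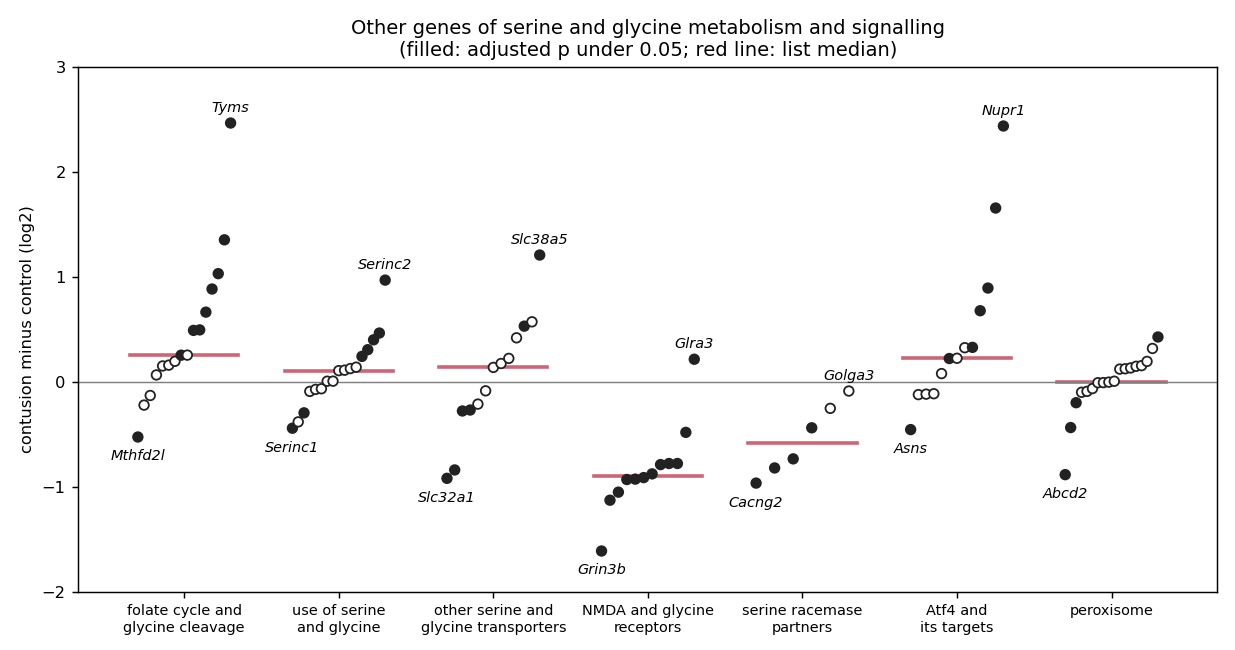
Contusion minus control (log2, vertical axis) for each of 95 other genes in 7 lists; points are genes, filled where the adjusted p was under 0.05, red lines are list medians, and the lowest and highest gene of each list is named, except that of the peroxisome list only the lowest is. Genes of the receptor list, which includes the scaffold gene Gphn, lie around a median of −0.90 with Grin3b lowest, and folate genes around 0.25 with Tyms highest.

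The mRNAs with levels most like those of Dao over the 8 arrays, by Pearson's r, were Klhl33 (r = 0.998), Shank1 (r = 0.993) and Bcl2l2 (r = 0.993), which differed by −0.99, −0.88 and −0.40. The groups of Dao lie far apart, so its r largely reflects the contusion-control difference. The mRNAs most like Srr, by its brightest probe only, were Gm3336 (r = 0.986), Timp4 (r = 0.955) and Alas1 (r = 0.952). They differed by 0.41, 0.45 and 0.16. Those most like Phgdh were Ccdc43 (r = 0.966), Hdac6 (r = 0.957) and Prpf6 (r = 0.952), which differed by 0.01, 0.04 and 0.02. These are descriptions over the same 8 arrays, picked as the highest of all mRNAs.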

How the data were processed

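Total RNA of 8 cords was labelled with Cy3 and read on 1-colour Agilent arrays. The deposited spot intensity values were background-subtracted and detrended within each array, per the file headers; the headers carry algorithm version 12.0.3.1, whereas Feature Extraction 10.7 is listed in the submitters' processing notes. The other columns used, per the file headers, are mean and background intensity and 0 or 1 flags. The authors' deposited log2 values were used as an alternative. Here, log2 processed intensity minus each array's 75th percentile was compared with limma 3.58.1 (R 4.3.3), group as the only term, after dropping probes that were well above background on fewer than 4 arrays, with Benjamini-Hochberg adjustment over all 89140 features and a threshold of 0.05. Each gene was represented by its brightest probe on average, and probes were also fitted singly. Of 22694 mRNA accessions, 99.1% matched RefSeq symbols of GRCm38.p6. Array coordinates are mm9. Slide 1 held control replicates 2, 3 and 4 and contusion replicate 1, and slide 2 the others, so a difference within a slide rests on 1 array on one side. P-values set the group difference of a feature against the spread between these samples, which limma moderates over all features. The members and lists were chosen with earlier results of these data known. Named pathway genes were up to 2 called rises and 2 called falls of each list plus 8 set names; some are not reported here. The fit was tested on simulated data. Same-numbered replicates did not pair (r of −0.24 to 0.06).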

Additional observations from a re-analysis of the deposited data

Results flagged for a closer look

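In 20 groups of 4 samples (10 genes, 2 groups), 1 had a sample far from the others. Shmt1, by its upstream probe, was at −1.46 in contusion replicate 1 and between −0.74 and −0.63 in the other contusion samples. Chance alone marks about 1 in 20 such groups. By the downstream Shmt1 probe the same sample was at −2.79, beside −3.02 to −2.91 in the others.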

How the results depend on the processing

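Dao, Slc7a10 and Slc6a9 were called lower under each alternative run: 2 other scalings, the authors' deposited values, 2 other filters, the mean of probes, slide as a block, a replicate block and samples left out. Psph was called higher in all of these except without contusion replicates 1 and 2 (0 of the 10 genes called higher). With the mean of probes 2 of the 10 were called higher, Psph and Shmt1, the latter with a probe not above background on all controls. With normexp and quantile scaling 36 of the 95 pathway genes were called higher, against 23, and the difference of Dao was −1.47; the cause was not tested. With the mean of probes Glra3 reversed to −0.28. Without control replicates 1 and 3, where neutrophil markers were high, Slc6a9 gave −0.66 and Psat1 −0.21; contusion replicates 3 and 4, with neutrophil means of 2.30 and 2.09 beside 1.73 and 2.05 in those controls, were kept, so this leaves the groups unequal in these markers. The replicate block left 7469 mRNAs called of 9309, all 4 calls of the 10 genes and 39 pathway genes called of 49; slide as a block left 8298, with 55.2% of calls higher against 50.4%. Leaving out 1 sample gave 7928 to 9610. Dim probes, such as those of Shmt1 near background, limit what can be said of small levels.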

Other observations

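Promoter windows of 250 bases before the start, from RefSeq (GRCm38.p6), were at hand for all 10 genes, 15 windows in all. On both strands they were searched for TGATGNAA, a motif of ATF4 with C/EBP partners, for CACGTG, an E-box, and for TGANTCA, the AP-1 motif. Over all 32851 windows of that length these letters occurred in 3.45%, 6.02% and 6.75%. Among the 15 windows, 13 held none of the 3 motifs. CACGTG occurred in 1 of the windows of Dao, 85 bases before the start, and in that of Ddo, 127 bases before the start. A match is a description of letters and no site.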
